A study of Homo sapiens with 9 samples.

Results

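The genes described here are 10 enzymes that build the ethanolamine, choline and serine phospholipids of cell membranes: ETNK1, CHKA, PCYT2, PCYT1A, SELENOI, CEPT1, PTDSS1, PTDSS2, PISD and PEMT. They were chosen by name, as users of phosphoethanolamine and as the choline and serine phospholipid enzymes linked to it. No measured value entered this rule, but earlier results of these data were known when the genes were chosen. All 10 were found among the 60671 genes of the count files, and all 10 were among the 13390 genes with enough reads to test. The RNA came from N/TERT, an established line of human skin keratinocytes kept dividing by telomerase, and its polyadenylated fraction was sequenced. Control cells were of wild-type genotype, KO cells carried a CRISPR knockout of SGPL1 and OE cells overexpressed SGPL1, with 3 libraries in each group. No cells were treated. The number of clones behind the KO and OE libraries and the promoter of the transgene are not given in the sources used here. Libraries are called biological replicates in the study's design text without saying whether they were separate clones or cultures, so p-values measure the spread between these libraries. In bulk RNA, fewer cells of a kind and less RNA per cell cannot be told apart.

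SGPL1 is sphingosine-1-phosphate (S1P) lyase, which splits S1P into a fatty aldehyde and phosphoethanolamine. Phosphoethanolamine is also made from free ethanolamine by the kinase ETNK1, and the next enzyme, PCYT2, turns it into CDP-ethanolamine. SELENOI and CEPT1 then transfer phosphoethanolamine from CDP-ethanolamine to diacylglycerol to give phosphatidylethanolamine (PE). A parallel route uses the choline kinase CHKA, the CDP-choline enzyme PCYT1A and CEPT1 to make phosphatidylcholine (PC). The synthases PTDSS1 and PTDSS2 exchange the headgroups of PC and PE for serine to give phosphatidylserine (PS), mitochondrial PISD decarboxylates PS to PE, and PEMT methylates PE to PC.

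Gene counts summed to between 6317564 and 13330479 per library. Levels are given as CPM, gene counts scaled to a common library size with the trimmed mean of M-values (TMM). SGPL1 had 83.9 to 98.3 CPM in control, 58.3 to 61.6 in KO and 929 to 1132 in OE libraries, without overlap between groups. Counts over all exons cannot tell an edited SGPL1 transcript from an intact one. The 10 keratinocyte markers were all detected in every group. Their summed level was 25900 to 26610 CPM in control, 15470 to 16990 in KO and 26800 to 27690 in OE libraries. In KO against control 8 of them were called lower and 1 higher, where 25.9% of all genes were lower and 26.0% higher. With the length and GC trend described below removed, 6 were lower and 2 higher, beside 20.7% and 24.8% of all genes. Of 7 fibroblast markers COL1A1 alone carried most reads (sum 21.5 to 28.3 CPM in control, 8.46 to 15.1 in KO and 24.5 to 28.4 in OE libraries), while LUM and COL3A1 were at 0 throughout. Of 6 melanocyte markers MITF carried most reads (sum 89.8 to 101.2, 69.2 to 76.5 and 60.0 to 71.4 CPM), and TYR and DCT were at 0. The 6 immune and endothelial markers summed to at most 1.42 CPM. Among them CD68 shares 81.6% of its exon length with another gene on its strand. Reads there may be assigned to neither gene, so its 0 counts say nothing about CD68. The part of these markers in the results below was not tested. OE replicate 3, the deepest library, differed from the other two OE libraries by a chi-square per degree of freedom of 10.1 and 10.8, beside 2.72 to 6.25 for the other replicate pairs.

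Fold changes between KO and control cells followed exon length and GC content across all genes. In 20 bins of equal size, the median log2 fold change was 0.64 in the bin of shortest genes (median 747 bases) and -0.49 in that of the longest (median 16650 bases). Values called corrected come from a fit in which this trend was removed in each library, and all others are as counted. At the lengths and GC contents of the 10 enzymes the trend itself ranged from -0.55 for PCYT2 to 0.17 for PEMT in KO against control, and from -0.03 to 0.03 in OE against control. PCYT2 differed by less than the trend predicted for it. In the plot of fold change against length and GC content, ETNK1, SELENOI, CEPT1, PTDSS1 and CHKA lay above the middle 50% of genes of like length, and the other 5 lay inside it. By GC content PTDSS1, PEMT and CHKA lay above the middle 50%, PCYT1A below it and the other 6 inside it.

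**Figure D1:**
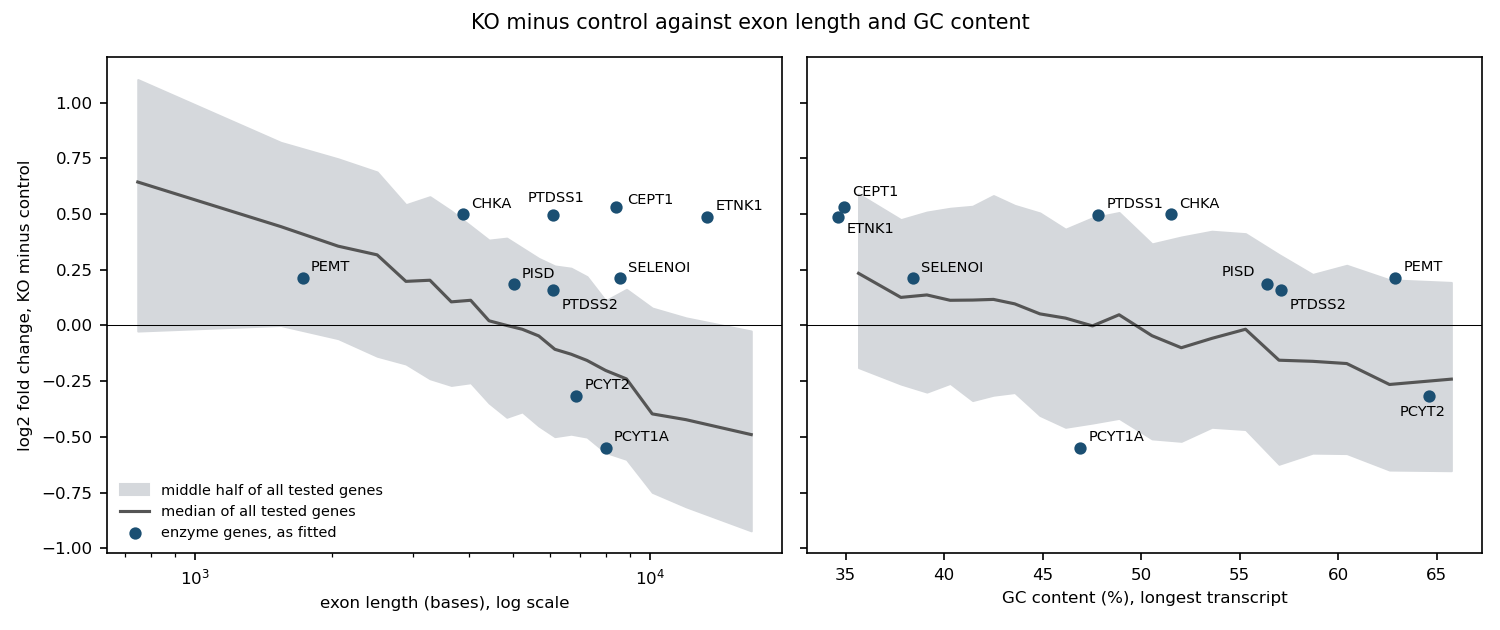
Log2 fold change of KO minus control (vertical axis) against exon length in bases (left, log scale) and GC content in percent of the longest transcript (right). The line and band are the median and the middle 50% of all tested genes in 20 equal bins, and the points are the 10 enzyme genes; PCYT2, at -0.32, sits inside the band in both panels, and ETNK1, at 0.49, above the band for its length.

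In KO cells 3 of the 10 enzymes were higher than in control cells, 2 were lower and 5 did not pass the test (adjusted p under 0.05). ETNK1, CEPT1 and PTDSS1 rose by 1.40-fold, 1.45-fold and 1.41-fold, and PCYT1A and PCYT2 fell by 1.46-fold and 1.24-fold. Among all genes tested 51.9% changed in this comparison, 26.0% higher and 25.9% lower, so the share of enzymes called was close to the background. With the trend removed 6 enzymes were higher and 1 was lower, where 45.6% of all genes changed, 24.8% higher and 20.7% lower. The 6 were ETNK1, CEPT1, PTDSS1, PTDSS2, PISD and SELENOI, and the 1 was PCYT1A. The median log2 fold change of the 10 was 0.21 (corrected 0.41), beside -0.005 (corrected 0.02) over all genes. KO and control libraries did not overlap for 8 of the 10, where 59.5% of all genes did not overlap.

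In OE cells 1 enzyme was higher than in control cells and 2 were lower. PEMT rose by 1.55-fold, and ETNK1 and PCYT1A fell by 1.27-fold and 1.20-fold, while 7 enzymes did not pass. Of all genes 18.6% changed, 9.28% higher and 9.34% lower, and the median log2 fold change of the 10 was -0.14, beside -0.007 over all genes. The same 1 and 2 enzymes were called with the trend removed, where 21.2% of all genes changed. OE and control libraries did not overlap for 5 of the 10, where 34.8% of all genes did not overlap. The 3 calls stood near the threshold: none of the 10 passed without control replicate 1, control replicate 2, control replicate 3 or OE replicate 2, and only PCYT1A passed without OE replicate 3. The call of ETNK1 was also lost without KO replicate 2 (adjusted p = 0.0588), which shares the estimate of spread.

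KO and OE cells were then compared directly, which uses no level of the control libraries. Of the 10 enzymes 6 were higher in KO than in OE cells (ETNK1, CEPT1, CHKA, PTDSS1, PISD and SELENOI), 1 was lower (PCYT1A) and 3 did not pass. Of all genes 57.6% changed here, 28.6% higher and 29.0% lower. With the trend removed 8 enzymes were higher and PEMT was lower, where 53.1% of all genes changed, 28.0% higher and 25.1% lower. KO and OE libraries did not overlap for 7 of the 10, where 61.6% of all genes did not overlap. The median log2 difference of the 10 was 0.30 (corrected 0.49), beside -0.005 (corrected 0.008) over all genes. The KO comparisons share their KO libraries and the comparisons with control share their controls, so the 3 counts are not independent of each other.

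**Figure D2:**
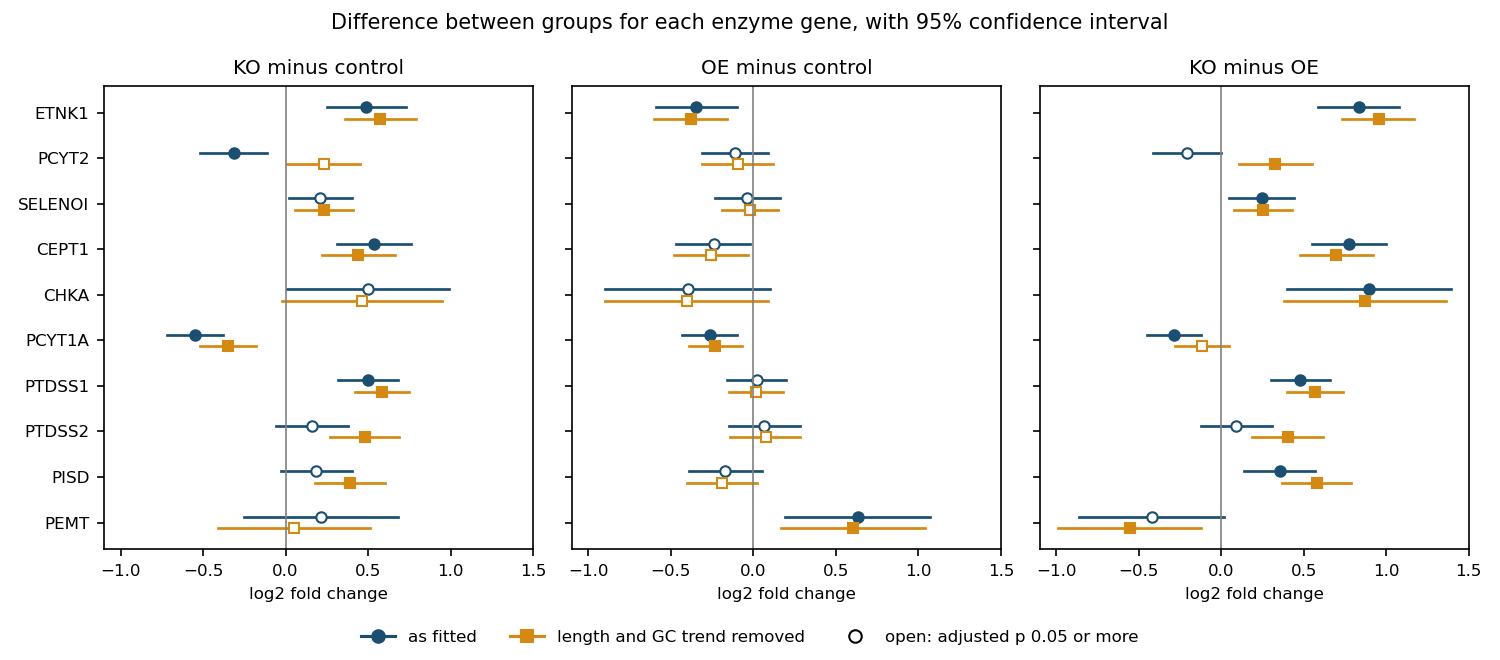
Log2 fold change with 95% confidence interval (horizontal axis) of the 10 enzyme genes in KO minus control, OE minus control and KO minus OE. Circles are the values as fitted, squares those with the length and GC trend removed, and open symbols have an adjusted p of 0.05 or more; in KO minus OE the largest differences are those of CHKA (0.90), ETNK1 (0.84) and CEPT1 (0.78).

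ETNK1, which phosphorylates ethanolamine (ENSG00000139163; GRCh38 chromosome 12, 22625075 to 22690665, plus strand, 14 merged exons), had 39.3, 40.7 and 38.4 CPM in control, 48.0, 54.6 and 64.3 in KO and 32.7, 32.6 and 28.0 in OE libraries. All KO libraries lay above and all OE libraries below every control library. The mean was 39.5 ± 1.13 CPM (SD, n = 3) in control, 55.6 ± 8.20 in KO and 31.1 ± 2.65 in OE cells. The log2 fold change was 0.49 ± 0.12 (SE) in KO against control (adjusted p = 0.00121, corrected 0.58 and adjusted p = 5.68e-05). It was -0.35 ± 0.12 in OE against control (adjusted p = 0.0421). KO and OE cells differed by 0.84 ± 0.12, or 1.79-fold (adjusted p = 2.03e-06, corrected 0.95).

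CHKA, the choline kinase (ENSG00000110721; chromosome 11, 68052859 to 68121444, minus strand, 15 merged exons), rested on 47 to 107 counts per library. It had 8.51, 5.48 and 8.20 CPM in control, 11.1, 12.0 and 7.95 in KO and 5.76, 6.35 and 4.81 in OE libraries. The control range overlapped both others, and KO and OE libraries did not overlap each other. Against control CHKA did not pass in KO cells (0.50 ± 0.24, adjusted p = 0.0800, corrected 0.47 and adjusted p = 0.108) or in OE cells (-0.40 ± 0.24, adjusted p = 0.284). The 95% confidence intervals ran from 0.01 to 0.99 and from -0.90 to 0.10. Without KO replicate 3 the KO difference was 0.65 and passed (adjusted p = 0.0342). Between KO and OE cells CHKA differed by 0.90 ± 0.24, 1.86-fold (adjusted p = 0.00262, corrected 0.87).

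PCYT2 makes CDP-ethanolamine from phosphoethanolamine and is the enzyme that directly uses the lyase product (ENSG00000185813; chromosome 17, 81900958 to 81911432, minus strand, 10 merged exons). It had 68.1, 63.8 and 62.7 CPM in control, 49.2, 49.7 and 58.2 in KO and 56.6, 59.6 and 64.1 in OE libraries. As counted, all KO libraries lay below all control libraries, and PCYT2 fell by 0.32 ± 0.10 on the log2 scale (adjusted p = 0.0113). The sign turned once the trend was removed (0.23 ± 0.11, adjusted p = 0.0773), when the KO libraries stood at 62.7, 61.8 and 78.0 CPM and the control libraries at 63.3, 54.0 and 54.0. The call was also lost without KO replicate 1 (adjusted p = 0.0525) or KO replicate 2 (0.0531). In OE cells PCYT2 had a log2 fold change of -0.11 ± 0.10 (adjusted p = 0.501, 95% confidence interval -0.31 to 0.09). Between KO and OE cells it was -0.21 ± 0.10 as counted (adjusted p = 0.0825) and 0.33 ± 0.11 once corrected (adjusted p = 0.0112). Of the exon length of PCYT2 28.3% is shared with NPB on the opposite strand, which had no counts in any library, and reads there may be assigned to neither gene.

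PCYT1A makes CDP-choline, the step usually held to limit PC synthesis (ENSG00000161217; chromosome 3, 196214222 to 196287957, minus strand, 15 merged exons). It had 143.6, 140.3 and 144.0 CPM in control, 97.3, 94.8 and 101.0 in KO and 124.6, 110.9 and 121.1 in OE libraries. The 3 groups did not overlap: control libraries were highest, OE libraries between and KO libraries lowest. KO cells were lower than control cells by 1.46-fold (-0.55 ± 0.08, adjusted p = 5.73e-06, corrected -0.35). OE cells were lower by 1.20-fold (-0.26 ± 0.08, adjusted p = 0.0227). The difference between KO and OE cells passed as counted (-0.29 ± 0.08, adjusted p = 0.00473) and not once corrected (-0.12 ± 0.08, adjusted p = 0.225).

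**Figure D3:**
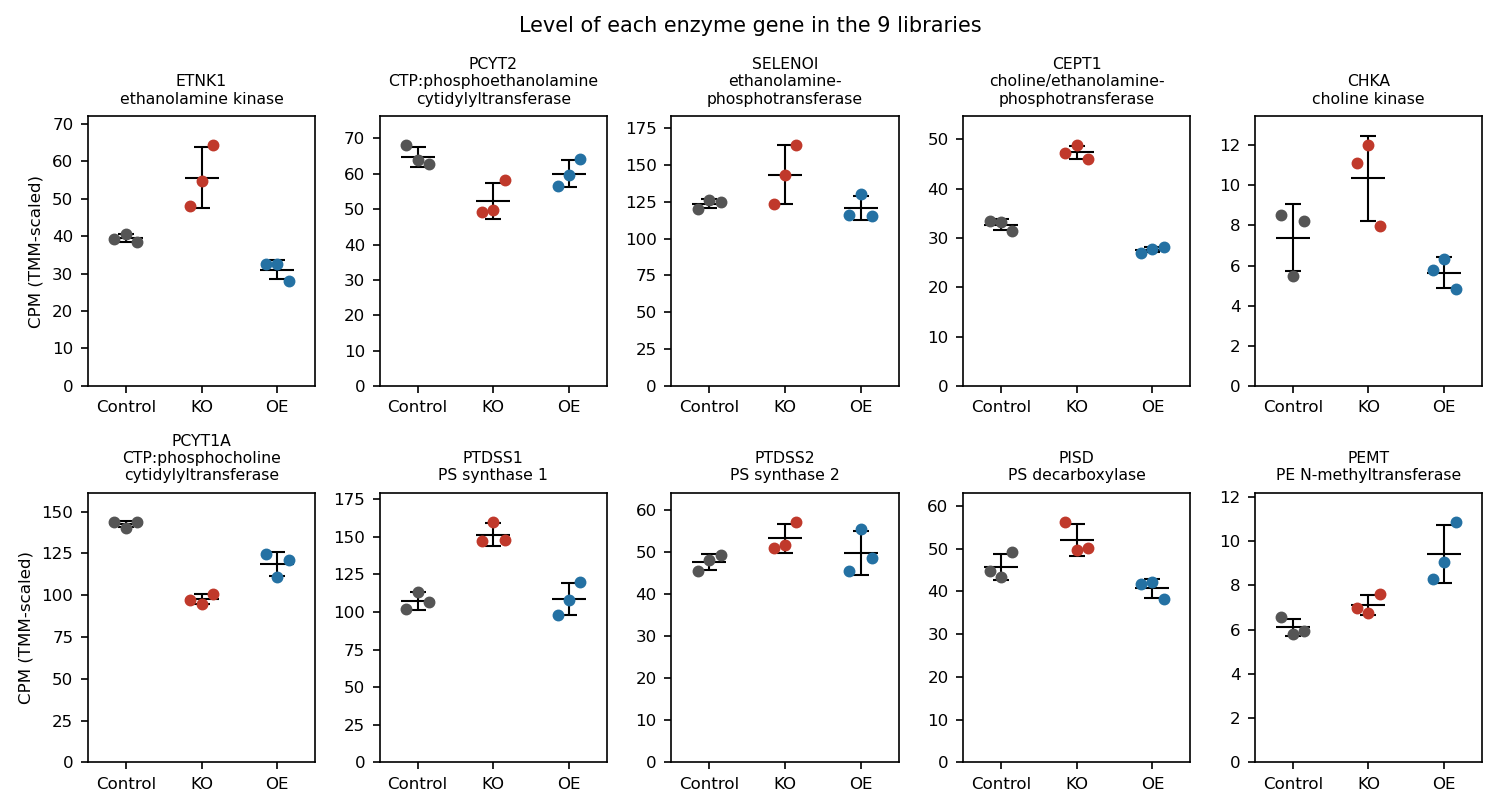
TMM-scaled CPM (vertical axis, from 0) of each of the 10 enzyme genes in the 3 control, 3 KO and 3 OE libraries. Points are libraries, and the bar and whiskers are the mean ± SD; ETNK1 and CEPT1 are highest in KO and lowest in OE libraries, and PCYT1A is highest in control libraries.

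SELENOI, a selenoprotein that transfers phosphoethanolamine from CDP-ethanolamine to diacylglycerol (ENSG00000138018; chromosome 2, 26308547 to 26395891, plus strand, 12 merged exons), had 120.2, 126.3 and 124.7 CPM in control, 123.6, 143.5 and 163.4 in KO and 116.3, 130.0 and 115.5 in OE libraries. All 3 groups overlapped, and the KO libraries were spread widest. The KO difference from control was 0.21 ± 0.09 (adjusted p = 0.0634) and passed once corrected (0.23 ± 0.08, adjusted p = 0.0253), without KO replicate 1 (0.0105) or without OE replicate 3 (0.0426). The OE difference was -0.04 ± 0.09 (adjusted p = 0.835, 95% confidence interval -0.23 to 0.16). KO exceeded OE cells by 0.25 ± 0.09 (adjusted p = 0.0267, corrected 0.0121), a call lost without KO replicate 2, KO replicate 3, OE replicate 1 or OE replicate 3 (adjusted p = 0.0690, 0.206, 0.0825 and 0.0715). It was lost too without a filter on low counts (adjusted p = 0.0698) and in a fit of these groups alone (adjusted p = 0.0503).

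CEPT1, which accepts both CDP-choline and CDP-ethanolamine (ENSG00000134255; chromosome 1, 111139627 to 111185104, plus strand, 13 merged exons), had 33.5, 33.2 and 31.4 CPM in control, 47.1, 48.8 and 46.0 in KO and 27.0, 27.8 and 28.1 in OE libraries. KO libraries were highest and OE libraries lowest, without overlap. CEPT1 rose in KO cells by 0.53 ± 0.11 (adjusted p = 0.000225, corrected 0.44). In OE cells its difference of -0.24 ± 0.11 did not pass (adjusted p = 0.133). KO exceeded OE cells by 0.78 ± 0.11, or 1.71-fold (adjusted p = 1.75e-06, corrected 0.70).

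ETNK1, CEPT1 and PISD stood in the same order over the groups, with KO libraries highest and OE libraries lowest, and PCYT1A stood in another. As counted, PISD did not pass against control in KO or OE cells (adjusted p = 0.146 and 0.289), nor did CEPT1 in OE cells (0.133). Over all genes 59.5% did not overlap between KO and control libraries, and 34.8% between OE and control libraries. The share of all genes in this order was not counted. The 250 bases before a RefSeq start (GRCh38.p14) of these 4 are shown, 5′ to 3′ on the strand of the gene. Capitals mark matches on either strand to any of 7 motifs: the Sp1 GC box GGGCGG, the NF-Y box CCAAT, the E-box CACGTG, the sterol regulatory element TCACNCCAC, the cAMP response element TGACGTCA, the AP-1 motif TGANTCA and the ETS motif CCGGAAGT.
ETNK1: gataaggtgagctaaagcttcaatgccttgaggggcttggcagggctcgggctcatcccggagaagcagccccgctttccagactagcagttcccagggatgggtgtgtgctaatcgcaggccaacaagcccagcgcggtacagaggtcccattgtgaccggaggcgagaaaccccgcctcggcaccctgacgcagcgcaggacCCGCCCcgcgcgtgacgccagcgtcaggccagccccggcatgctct
CEPT1: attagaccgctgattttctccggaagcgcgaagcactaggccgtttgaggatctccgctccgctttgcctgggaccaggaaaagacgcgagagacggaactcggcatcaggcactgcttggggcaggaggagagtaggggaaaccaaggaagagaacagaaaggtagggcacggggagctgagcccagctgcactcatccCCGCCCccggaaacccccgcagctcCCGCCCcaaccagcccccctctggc
PISD: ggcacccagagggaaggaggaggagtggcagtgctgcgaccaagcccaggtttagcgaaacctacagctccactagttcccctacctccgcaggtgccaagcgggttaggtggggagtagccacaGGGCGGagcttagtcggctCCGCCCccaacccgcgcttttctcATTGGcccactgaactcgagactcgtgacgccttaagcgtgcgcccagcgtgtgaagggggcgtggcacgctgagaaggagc
PCYT1A: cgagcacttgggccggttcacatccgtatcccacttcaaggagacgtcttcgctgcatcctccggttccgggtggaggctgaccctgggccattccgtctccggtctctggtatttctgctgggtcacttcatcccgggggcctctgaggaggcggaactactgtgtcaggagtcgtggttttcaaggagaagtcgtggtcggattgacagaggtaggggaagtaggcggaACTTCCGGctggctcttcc
The windows are chr12:22624921-22625170 and chr1:111139599-111139848 on the plus strand, and chr22:31662216-31662465 and chr3:196287727-196287976 on the minus strand. RefSeq lists a further start of CEPT1, whose window held none of the motifs, and of PISD, whose window held 1 AP-1 motif. In the windows shown ETNK1 held 1 GC box, CEPT1 held 2, PISD held 2 and 1 CCAAT box, and PCYT1A held 1 ETS motif. Of the 8 enzymes with a window, which leave out CHKA and PTDSS1, 7 held a GC box, in 10 of 14 windows, PCYT1A being the exception. Whether GC boxes have a part in the order over the groups was not tested. A GC box was present in 42.5% and an ETS motif in 3.4% of 34943 windows of this length, and a sterol regulatory element in 0.9%. A match in these letters does not show that a factor binds there.

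PTDSS1 makes PS chiefly from PC (ENSG00000156471; chromosome 8, 96261902 to 96336995, plus strand, 14 merged exons). It had 101.8, 113.4 and 106.5 CPM in control, 146.9, 160.0 and 147.5 in KO and 98.2, 107.9 and 119.7 in OE libraries. All KO libraries lay above all others, while control and OE libraries overlapped. KO cells exceeded control cells by 0.50 ± 0.09 (adjusted p = 5.09e-05, corrected 0.59) and OE cells by 0.48 ± 0.09 (adjusted p = 6.17e-05, corrected 0.57). OE cells had a log2 fold change of 0.02 ± 0.09 against control, with a 95% confidence interval from -0.16 to 0.20.

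PTDSS2, which makes PS from PE (ENSG00000174915; chromosome 11, 448268 to 491399, plus strand, 15 merged exons), had 45.4, 48.0 and 49.3 CPM in control, 50.9, 51.6 and 57.2 in KO and 45.4, 55.4 and 48.5 in OE libraries. KO libraries lay above control libraries, and OE libraries overlapped both. As counted the KO difference did not pass (0.16 ± 0.11, adjusted p = 0.220). With the trend removed it was 0.48 ± 0.10 and passed (adjusted p = 0.000419), as it did against OE cells (0.41 ± 0.10, adjusted p = 0.00150). In OE against control the difference was 0.07 ± 0.10 (adjusted p = 0.729, 95% confidence interval -0.15 to 0.28). The ratio of PTDSS1 to PTDSS2 per exon length was 2.24, 2.36 and 2.16 in control, 2.89, 3.11 and 2.58 in KO and 2.17, 1.95 and 2.47 in OE libraries. The KO ratios were highest as counted, but once corrected they were 2.34, 2.52 and 2.31 in control, 2.66, 2.80 and 2.27 in KO and 2.31, 2.05 and 2.54 in OE libraries, and the groups overlapped.

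PISD, the decarboxylase that makes PE in mitochondria (ENSG00000241878; chromosome 22, 31618491 to 31662432, minus strand, 15 merged exons), had 44.8, 43.3 and 49.2 CPM in control, 56.3, 49.6 and 50.1 in KO and 41.6, 42.2 and 38.2 in OE libraries. KO libraries were highest and OE libraries lowest, without overlap, but neither difference from control passed (0.19 ± 0.11, adjusted p = 0.146, and -0.17 ± 0.11, adjusted p = 0.289). Once corrected PISD was higher in KO than in control cells (0.39 ± 0.10, adjusted p = 0.00263). KO exceeded OE cells by 0.36 ± 0.11, or 1.28-fold (adjusted p = 0.00591, corrected 0.58).

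PEMT, best known from liver (ENSG00000133027; chromosome 17, 17505563 to 17591708, minus strand, 15 merged exons), had 45 to 149 counts per library. It had 6.55, 5.79 and 5.96 CPM in control, 6.99, 6.73 and 7.61 in KO and 8.30, 9.07 and 10.9 in OE libraries. The 3 groups did not overlap, with OE highest. The OE difference from control was 0.63 ± 0.21 (adjusted p = 0.0393, 95% confidence interval 0.19 to 1.07). It did not pass without control replicate 1, 2 or 3 (adjusted p = 0.0682, 0.116 and 0.104), without OE replicate 2 (0.0716) or without OE replicate 3 (0.159). In KO cells the difference was 0.22 ± 0.22 (adjusted p = 0.439, corrected 0.05). OE exceeded KO cells by 1.34-fold, which did not pass as counted (adjusted p = 0.0980) and passed once corrected (-0.55 ± 0.21 for KO against OE, adjusted p = 0.0289).

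Divided by exon length, the levels of the 10 enzymes in control cells spanned from 17.9 CPM per kb for PCYT1A to 1.91 for CHKA. PCYT1A (17.6 to 18.1) and PTDSS1 (16.7 to 18.6) led and overlapped, followed by SELENOI (14.5). PCYT2 (9.44) and PISD (9.15) overlapped, PTDSS2 (7.78) came next, CEPT1 (3.88) and PEMT (3.55) overlapped, and ETNK1 (2.97) and CHKA were lowest. In KO cells PTDSS1 led with 24.8 CPM per kb, SELENOI followed with 16.8 and PCYT1A stood at 12.3, the 3 not overlapping. In OE cells PTDSS1 led with 17.8, and PCYT1A (14.9) and SELENOI (14.1) overlapped. The ethanolamine transferase SELENOI exceeded CEPT1 per exon length by 3.53, 3.75 and 3.92 times in control, 2.58, 2.90 and 3.50 times in KO and 4.24, 4.60 and 4.05 times in OE libraries, with no overlap between groups as counted. Once corrected the ratios were 3.50, 3.60 and 3.70 in control, 2.65, 3.03 and 3.75 in KO and 4.17, 4.5 and 4.06 in OE libraries, so KO and control libraries overlapped. The levels per exon length are as counted. Exon length takes all annotated exons of a gene, so these levels depend on which isoforms the cells use. Exon length also includes stretches shared with other genes, such as 28.3% of PCYT2 and 16.3% of CHKA. Reads there may be assigned to neither gene, so levels of such genes may be too low and their place in the order may differ.

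**Figure D4:**
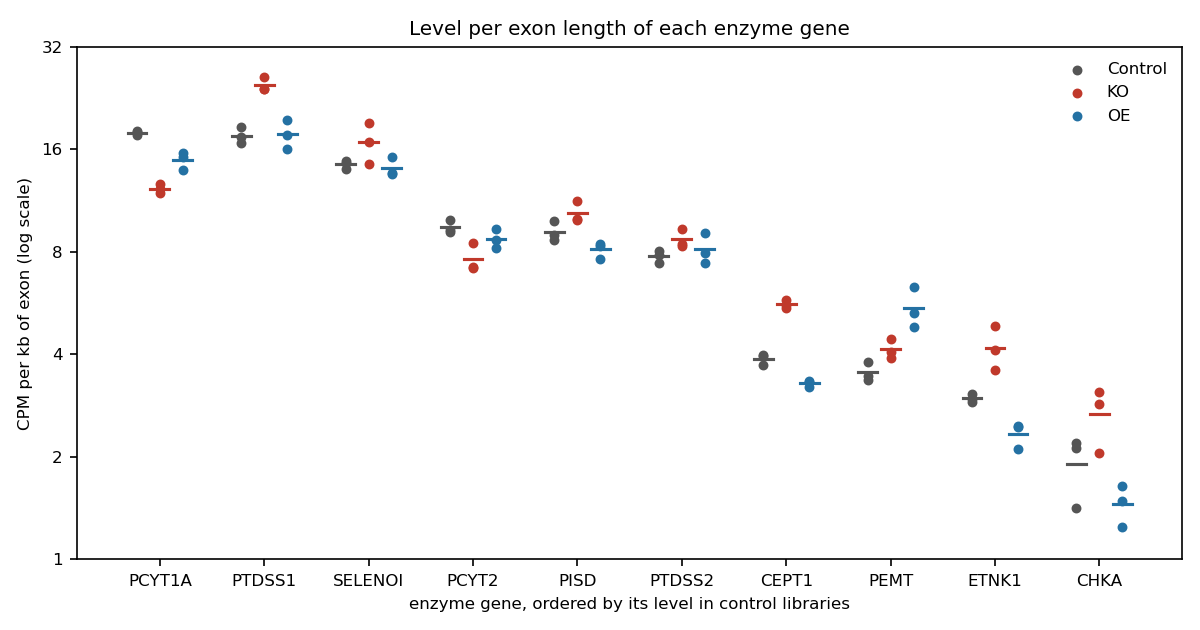
CPM per kb of exon (vertical axis, log scale) of the 10 enzyme genes, ordered by their level in control cells. Points are the 3 libraries of each group and lines the group means; PTDSS1 stands at 17.6 CPM per kb in control and 24.8 in KO cells, and PCYT1A falls from 17.9 to 12.3.

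Of 6 further enzymes of the ethanolamine and choline routes, only the ethanolamine kinase ETNK2 and the cholinephosphotransferase CHPT1 had enough reads to test. CHPT1 rose in KO cells (0.46 ± 0.20, adjusted p = 0.04995, corrected 0.23 and 0.337), a call lost without control replicate 2 or 3, KO replicate 1 or 2, or OE replicate 1. By DESeq2's Wald test (adjusted p = 0.0589) and limma-voom (adjusted p = 0.0510) CHPT1 did not pass. ETNK2 had 0.19 ± 0.14 in KO against control (adjusted p = 0.245, corrected 0.42 and 0.0120) and was higher in KO than in OE cells (0.45 ± 0.14, adjusted p = 0.00663, corrected 0.70). The second choline kinase gene, CHKB, had at most 0.907 CPM, but 72.5% of its exon length is shared with the readthrough gene CHKB-CPT1B. Reads there may be assigned to neither gene, so this says nothing about CHKB. PCYT1B, ETNPPL and PHOSPHO1 had no counts.

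Genes of choline and ethanolamine transport were among those that differed between KO and OE cells. Of 7 tested, 5 were higher and 1 was lower in KO than in control cells (3 and 1 once corrected), 0 were higher and 1 was lower in OE cells, and 6 were higher and 1 was lower in KO than in OE cells. Over all genes 26.0% were higher and 25.9% lower in KO than in control cells (24.8% and 20.7% once corrected). The shares were 9.28% and 9.34% in OE against control, and 28.6% and 29.0% in KO against OE. The median log2 difference of the 7 genes in KO against OE was 0.90 (corrected 0.74), beside -0.005 (corrected 0.008) over all genes. The choline transporter-like protein SLC44A4 had 5.35, 5.06 and 4.94 CPM in control, 12.4, 14.4 and 11.3 in KO and 1.55, 3.02 and 4.52 in OE libraries. It rose in KO cells by 1.32 ± 0.27 (adjusted p = 0.000252, corrected 1.29) and was 2.02 ± 0.28 higher than in OE cells (adjusted p = 1.45e-06, corrected 2.02). SLC44A5 fell in OE cells (-0.91 ± 0.13, adjusted p = 2.25e-05), with 31.5, 23.9 and 22.2 CPM against 57.0, 43.8 and 44.3. Its rise in KO cells (0.34 ± 0.13, adjusted p = 0.0273) was lost once corrected (0.22, adjusted p = 0.137) and without control replicate 2 or 3 or KO replicate 1 or 2. SLC44A2, another choline transporter-like protein, fell in KO cells from 904.3 ± 37.3 to 624.2 ± 27.2 CPM (-0.54 ± 0.08, adjusted p = 7.67e-06, corrected -0.34).

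Diacylglycerol, the acceptor for both routes, comes from phosphatidic acid through the lipins. Of 11 tested genes of its supply, 3 were higher and 4 were lower in KO than in control cells (6 and 3 once corrected). That is 63.6% changed (81.8% once corrected), beside 51.9% (45.6%) of all genes. All 3 lipin genes fell in KO cells. LPIN1 had 122.9, 120.0 and 131.5 CPM in control, 39.5, 42.1 and 43.6 in KO and 93.0, 83.9 and 64.6 in OE libraries. It fell by 1.58 ± 0.11 on the log2 scale in KO cells (adjusted p = 1.24e-10, corrected -1.17) and by 0.64 ± 0.11 in OE cells (adjusted p = 0.000120). LPIN3 fell in KO cells (-1.37 ± 0.14, adjusted p = 1.73e-08, corrected -1.15). LPIN2 fell in KO cells (-0.74 ± 0.23, adjusted p = 0.00874, corrected -0.56 and adjusted p = 0.0474, and 0.0541 with the replicate number as a block as well) and rose in OE cells (0.74 ± 0.20, adjusted p = 0.0103, and 0.0536 without OE replicate 2). KO and OE cells differed by -0.94 ± 0.11, -1.30 ± 0.14 and -1.48 ± 0.22 in LPIN1, LPIN3 and LPIN2 (corrected -0.56, -1.07 and -1.31).

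PEMT uses S-adenosylmethionine, and all 5 tested genes of a list of its synthesis and of AHCY and its relatives changed in KO cells, 2 higher and 3 lower, where 51.9% of all genes changed. AHCYL1 and AHCYL2 (-0.25 ± 0.09 and -0.81 ± 0.12), of the 3 that fell, are AHCY-like proteins and do not make S-adenosylmethionine. AHCY, which clears the product of methylation, rose from 584.7 ± 11.3 to 1258 ± 123.6 CPM (1.11 ± 0.08, adjusted p = 2.94e-10, corrected 1.18). MAT2B, the regulatory subunit of methionine adenosyltransferase, rose (0.85 ± 0.09, adjusted p = 4.49e-08, corrected 0.60), and the catalytic subunit MAT2A fell (-0.53 ± 0.10, adjusted p = 8.83e-05, corrected -0.67). In plasmalogen synthesis, which makes ether-linked PE, 1 of 6 tested genes rose and 1 fell in KO cells (2 and 1 once corrected), or 33.3% (50%) beside 51.9% (45.6%) of all genes. GNPAT, its first acyltransferase, rose from 57.9 ± 6.25 to 132.8 ± 5.90 CPM (1.20 ± 0.11, adjusted p = 2.80e-09, corrected 0.84). FAR1, which supplies its fatty alcohol, fell (-0.23 ± 0.08, adjusted p = 0.0153, corrected -0.50), a call lost without control replicate 3 or KO replicate 2, and with the length trend alone removed (-0.06, adjusted p = 0.489). PEX7 had 0.36 ± 0.21 (adjusted p = 0.158, corrected -0.05).

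PE also donates ethanolamine phosphate to the GPI anchors of surface proteins. Of 5 tested transferases and partners, 3 rose and 1 fell in KO cells (3 and 0 once corrected), where 51.9% (45.6%) of all genes changed. PIGN rose (0.56 ± 0.10, adjusted p = 7.15e-05, corrected 0.93), as did PIGF (0.72 ± 0.22, adjusted p = 0.00747, corrected 0.53). PIGO fell as counted (-0.37 ± 0.10, adjusted p = 0.00349) and not once corrected (-0.02, adjusted p = 0.874). A list of 13 genes held lipid transfer to and within mitochondria, cardiolipin synthesis (PTPMT1, CRLS1, PGS1 and TAMM41) and the mitochondrial fusion gene MFN2. Of these 13, 3 rose and 4 fell in KO cells (2 and 3 once corrected), or 53.8% (38.5%), close to the share of all genes as counted. TRIAP1 rose (0.95 ± 0.12, corrected 0.49), PRELID3B, its partner in phospholipid transfer, rose (0.75 ± 0.09, corrected 0.30) and VPS13D fell (-0.88 ± 0.11, corrected -0.27), with adjusted p values of at most 5.09e-07.

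Of 7 lysophospholipid acyltransferases, 2 rose and 1 fell in KO cells (3 and 1 once corrected), or 42.9% (57.1%) beside 51.9% (45.6%) of all genes. MBOAT1 fell (-0.68 ± 0.11, adjusted p = 2.30e-05, corrected -0.77) and LPCAT3 rose (0.50 ± 0.14, adjusted p = 0.00510, corrected 0.57). LPCAT4 had -0.17 ± 0.08 (adjusted p = 0.0762, corrected 0.02), and passed without OE replicate 3 (adjusted p = 0.0449) and in a fit of these groups alone (adjusted p = 0.0343). Of 11 genes of phospholipid breakdown, 1 rose and 3 fell in KO cells (0 and 4 once corrected), or 36.4% both times. PNPLA6 fell as counted (-0.38 ± 0.08, adjusted p = 0.000262) but had the opposite sign once corrected (0.17, adjusted p = 0.0675). GDE1 rose (0.24 ± 0.08, adjusted p = 0.0184), a call lost once corrected (0.14, adjusted p = 0.162), without a filter on low counts (0.0580) and without control replicate 1 or 2 or KO replicate 3. GDPD3 had -0.25 ± 0.23 in KO cells (adjusted p = 0.373, corrected -0.57 and 0.0391) and fell in OE cells (corrected -1.03, adjusted p = 0.00157, and 0.00301 as counted). Of 5 tested genes of S1P turnover 2 rose and 2 fell in KO cells, as counted and once corrected. The 5 include SGPL1, the edited gene, so this count is in part set by the design. The 2 that fell were SGPL1 and the sphingosine kinase SPHK2 (-0.95 ± 0.17, adjusted p = 5.40e-05, corrected -0.50). The S1P phosphatase SGPP1 (0.79 ± 0.10, corrected 0.40) and the aldehyde dehydrogenase ALDH3A2 (0.42 ± 0.08, corrected 0.91) rose in KO cells, with adjusted p values of at most 9.62e-05.

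**Figure D5:**
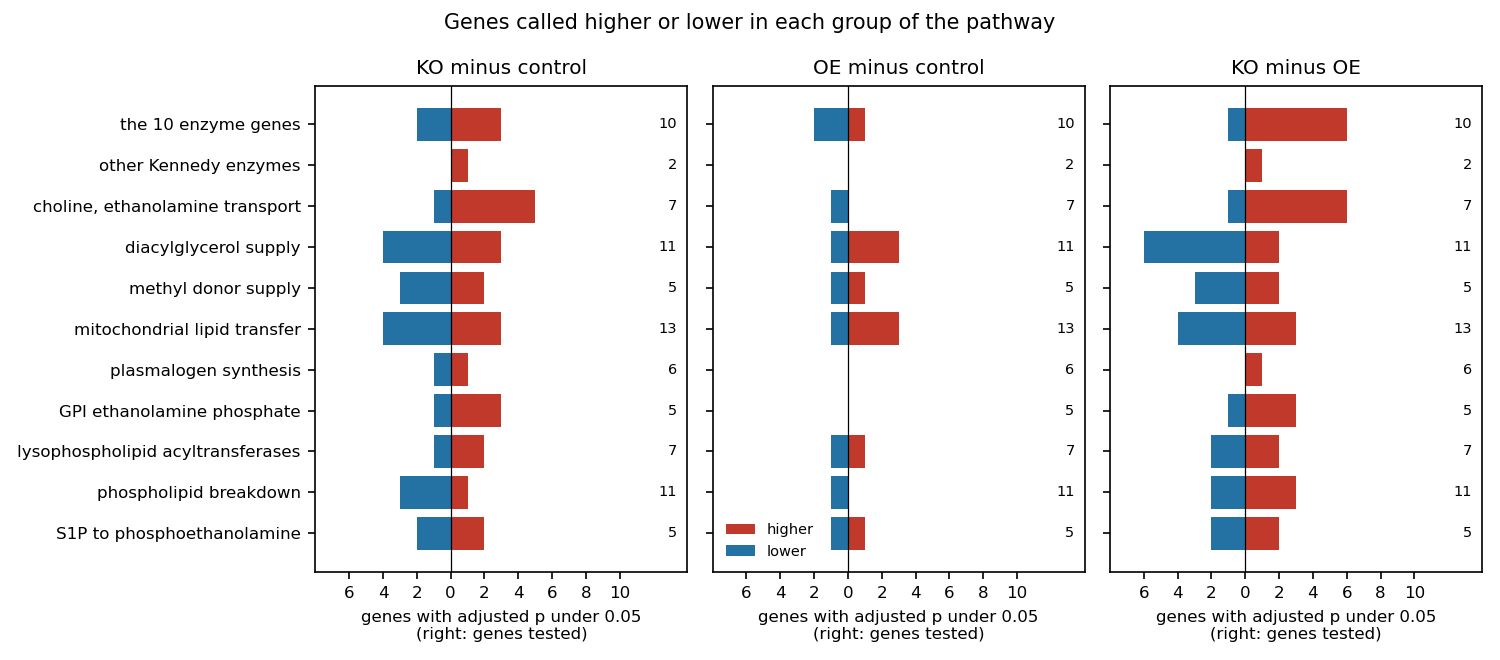
Number of genes called higher (right of 0) or lower (left of 0) at an adjusted p under 0.05 in the 10 enzyme genes and in 10 lists of the surrounding pathway, as fitted, for KO minus control, OE minus control and KO minus OE. The figures at the right edge are the genes tested in each list. Of the 7 tested transport genes 6 are higher in KO than in OE cells. The S1P list includes SGPL1, the edited gene, and the list of mitochondrial lipid transfer also holds genes of cardiolipin synthesis and MFN2.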

How the data were processed

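Titles and genotypes in the labels put 9 libraries into control, KO and OE, 3 each. The deposited gene counts are raw and whole; the authors used featureCounts 1.5.2 with Ensembl release 101 (GRCh38), per the file headers. Tools in the submitters' processing notes are HISAT2 1.03, FastQC and DESeq2, with featureCounts given as version 0.1.0. Strand, read pairs and overlapping genes have no option in the counting command. Of all counts from 1 to 10, 66.8% were even, and both mates of a pair may have been counted. Which of 2 overlapping or antisense genes a read came from is unknown. Symbols were matched by gene identifier for 42020 of 60671 genes. GC content came from GENCODE release 29 for 13341 of 13390 tested genes, and promoters from RefSeq for 8 of the 10 enzymes. CHKA had no promoter entry, and PTDSS1, on chromosome 8, was left out of the search.

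The test was the quasi-likelihood F-test of edgeR 4.0.16 (R 4.3.3) on TMM-scaled counts, with group as the model and every library in it. Genes passed filterByExpr at a minimum count of 10, p-values were adjusted over 13390 genes by Benjamini-Hochberg, and those under 0.05 were called. The common biological coefficient of variation was 10.2%. No replicates were identical, and all pairs differed beyond sampling noise. For corrected values, each library's log2 CPM (prior count 2) less the mean library was smoothed by loess (span 0.3) on exon length and GC content and entered as an offset. The functions were tested on simulated data. Alternatives were another scaling (DESeq2 1.42.0), its Wald test, limma-voom (limma 3.58.1), looser and stricter filters, fits of the compared groups alone, the length trend alone, a block for the replicate number, and leaving out a library. Named genes were the 10 enzymes, SGPL1, up to 3 genes of each pathway list by smallest p, and the 3 genes nearest in pattern to the enzyme of smallest p. CHKB, PCYT1B, ETNPPL, PHOSPHO1, SPHK2, AHCYL1 and AHCYL2 were named after their values were seen. The members and lists were chosen with earlier results of these data known.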

Additional observations from a re-analysis of the deposited data

How the results depend on the processing

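The number of enzymes called in KO against control stayed between 4 and 7, and in KO against OE between 6 and 9, over the 19 alternatives. In OE against control the number was 3 as fitted by edgeR, and 3 by DESeq2's Wald test and by limma-voom, but 0 without a filter on low counts, where 3 enzymes had an unadjusted p under 0.05. Over the fits that leave out a library it ranged from 0 to 3, with 3 or 4 enzymes at an unadjusted p under 0.05. In KO against control ETNK1, CEPT1, PTDSS1 and PCYT1A, and in KO against OE ETNK1, CEPT1, CHKA, PTDSS1 and PISD, kept their direction and call under all 19. Signs turned as follows with the length and GC trend removed, without and with the replicate block: PCYT2 had 0.23 and 0.23 in KO against control and 0.33 and 0.33 in KO against OE, PEX7 -0.047 and -0.045, LPCAT4 0.016 and 0.016, and PNPLA6 0.17 and 0.17 in KO against control. PEMT had -0.10 in KO against control with the length trend alone removed. Near 0, signs also turned in OE against control without single libraries, where SELENOI ranged from -0.091 to 0.004, PTDSS1 from -0.048 to 0.087 (-0.016 without control replicate 1), and PTDSS2 from -0.015 to 0.125. The causes were not tested. Same-numbered libraries correlated at -0.077 to 0.066 in their deviations from the group means, and 3 of 9 libraries correlated best with their own number. No pairing by number was seen, though libraries of the same number may still have been prepared together. With the replicate block 5, 2 and 7 enzymes were called in KO against control, OE against control and KO against OE, and PEMT lost its call in OE cells (adjusted p = 0.0519). LPIN2 lost its call in KO against control with the block and the trend removed together (adjusted p = 0.0541). Depth limits CHKA and PEMT most, with 45 to 149 counts per library.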

Other observations

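PCYT1A had the smallest p of the 10 enzymes both in KO against control and in OE against control. Among tested protein-coding genes, the 3 whose log2 CPM, centred on the gene's mean, came nearest to that of PCYT1A over the 9 libraries were SERPINB5 (root mean square difference 0.063), TENT5B (0.076) and GPN2 (0.076), beside a median of 0.377 over all such genes. SERPINB5 had a mean of 1202 CPM in control, 794.4 in KO and 988 in OE cells.

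Among the enzymes called in KO cells, the chromosomal neighbours of PTDSS1, CEPT1, PCYT1A and PCYT2 had a median difference of the same sign as the enzyme, and those of ETNK1 did not. Over all genes 26.0% were called higher and 25.9% lower. Within 5 Mb on each side of PTDSS1, 41 tested genes had a median log2 fold change of 0.36 in KO against control (corrected 0.16), with 18 called higher and 3 lower, beside a median of 0.07 over 461 tested genes of the whole of chromosome 8, neighbours included. Around PCYT1A 49 neighbours had a median of -0.26 (corrected -0.17), with 8 higher and 19 lower, beside 0.007 over 764 genes of chromosome 3. Their medians in OE against control were -0.06 and -0.03. Around PCYT2 91 neighbours had a median of -0.21 in KO against control (corrected 0.17), with 21 higher and 31 lower. The median over 798 genes of chromosome 17 was near it, at -0.15 (corrected -0.035). Around ETNK1 the median was -0.11, beside 0.029 over chromosome 12. Around CEPT1 it was 0.05, with 20 higher and 17 lower, and so below the 0.086 of chromosome 1. Whether the neighbourhood has a part in the differences of PTDSS1 and PCYT1A was not tested.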
